A study of Arabidopsis thaliana with 18 samples.

Results

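The subject is a set of 60 Arabidopsis transcripts that were at the background of the array in water-sprayed seedlings and clearly measured 3 h after antimycin A, at a similar level in wild type and in the mutants rao1-1 and rao1-2. They were chosen from 22746 probe sets, the groups of short probes that each read a transcript. A member had a mean intensity below 19 in the mock groups of all 3 genotypes and of at least 64 in the antimycin A groups of all 3, with each mutant's antimycin A mean within 2-fold (1 on the log2 scale) of wild type's; means are of log2 values. Of the probe sets, 8338 met the mock condition, 153 of these also met the antimycin A condition in wild type, 106 met it in all 3 genotypes and 64 of the 106 were within the tolerance. Then 4 of these were left out because the rule excludes 10 named genes. The platform annotation gave 1 gene to 31 members and left 29 unnamed here.

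Seedlings were 14 days old, grown on Gamborg B5 medium with 3% sucrose in cycles of 16 h light and 8 h dark at 22 °C. A spray of antimycin A at 50 µM, or of deionised water (mock), was given before whole green tissue was collected. Each of the 6 groups, wild type labelled Col-Luc (also Col:LUC), rao1-1 and rao1-2 under mock and antimycin A, held 3 arrays. The rao1 (regulators of alternative oxidase 1a) lines came from a forward genetic screen, and the title of the series names the kinase CDKE1, which had no named probe set and was not analysed here. The labels number the replicates without saying that they came from separate cultures, so the errors below may cover technical spread only. RNA came from whole green tissue, so more RNA per cell and more cells of a type cannot be told apart.

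Antimycin A blocks electron transfer at complex III of the mitochondrial respiratory chain. Plants answer such a block by mitochondrial retrograde signalling, in which the state of the organelle changes transcription in the nucleus. Its best known route in Arabidopsis runs through membrane-bound NAC transcription factors and raises a group of genes called the mitochondrial dysfunction stimulon, which includes the alternative oxidase gene AOX1A. CDKE1 is the kinase of the Mediator complex, which links transcription factors to RNA polymerase II. Antimycin A also raises general stress and defence transcripts, and many of these are silent in unstressed leaves.

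All values below are deposited intensities on a linear scale in arbitrary units, and a background limit of 19 separates the lower from the upper mode of all values. Because the rule used the group means of both treatments and all genotypes, the members' levels and changes are a description, without a test. For a member under the limit on all 3 mock arrays of a genotype, the fold is a lower bound, computed against the limit and written as at least. Across arrays, 61.8 to 62.3% of probe sets read above the limit and the median intensity was 77.8 to 91.8. Signal of 25S ribosomal RNA also went up, from log2 means of 12.81 to 13.65 in wild type, 12.96 to 14.20 in rao1-1 and 12.98 to 14.03 in rao1-2, and its part in the changes below was not tested. The hybridisation control BioC-3 had log2 means of 7.71 and 7.95 under mock in rao1-1 and rao1-2. In the other groups its means were 8.28 to 8.32, and its part was not tested either. Of 8 green tissue markers, 4 were named here, and their summed intensity was 67529.6 to 85995 on the mock arrays and 59091 to 70982 under antimycin A. By limma's test the inhibitor lowered 4 of the 4 in wild type, and 1 and 2 of them in rao1-1 and rao1-2. Of all probe sets, 28.8%, 24.8% and 27.3% were called lower in wild type, rao1-1 and rao1-2. The wild-type call of RCA, Rubisco activase, was lost on leaving out single arrays and under 4 other settings. Those of LHCB4.1 in wild type and PSBY in rao1-1 were lost on fitting only the groups compared. Of 5 root markers, 2 were named. PYK10, a beta-glucosidase typical of roots and hypocotyls, had group means from 462 to 1118, while EXPA7, an expansin of root hairs, stayed near 4 in every group and so under the limit. The part of these tissues in the members' levels was not tested.

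As a set, the 60 members went from a median group mean of 6.64 to 243 in wild type, from 6.98 to 193 in rao1-1 and from 8.35 to 205 in rao1-2. Every one of them read above the background limit on all 9 antimycin A arrays, and none did so on all 3 mock arrays of any genotype. In 36 members all 9 mock arrays were below the limit, and 39 of the 540 mock values lay above it. The stricter statement, that all 9 mock arrays were below 19 and all 9 antimycin A arrays at 64 or more, held for 28 members, 17 of them named. The strictly separated named members included the transcription factor genes AT2G38250 and AT1G07520, EXLA3, the transporter gene AT5G52050 and the clathrin adaptor genes AT1G05020 and AT4G40080.

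In wild type, rao1-1 and rao1-2 the median log2 change of the members was 5.30, 5.19 and 5.02, against -0.00, 0.04 and 0.03 over all probe sets. The fitted changes, most of them against mock readings under the limit, ranged from 2.38 to 9.91 in wild type, from 2.74 to 10.12 in rao1-1 and from 2.38 to 9.25 in rao1-2. For the 51 members with a bound in wild type, the median was at least 13.8-fold and the highest at least 272-fold. The bounds had medians of at least 11.1-fold over 50 members in rao1-1 and at least 10.8-fold over 45 in rao1-2. By limma's test over all probe sets at an adjusted p below 0.05, higher calls were made for 60 of 60 members in wild type, where 14.4% of all probe sets were called higher. In rao1-1 the count was also 60, beside 15.8% of all probe sets, and in rao1-2 it was 59, beside 15.6%. These counts follow from the rule. The exception in rao1-2 was the unnamed probe set 265260_at, singled out after its values were seen; with a replicate block the rao1-2 count was 60. In each genotype all 3 antimycin A arrays of every member lay above all 3 mock arrays, which was true of 18.1%, 31.7% and 23.6% of all probe sets in wild type, rao1-1 and rao1-2.

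**Figure D1:**
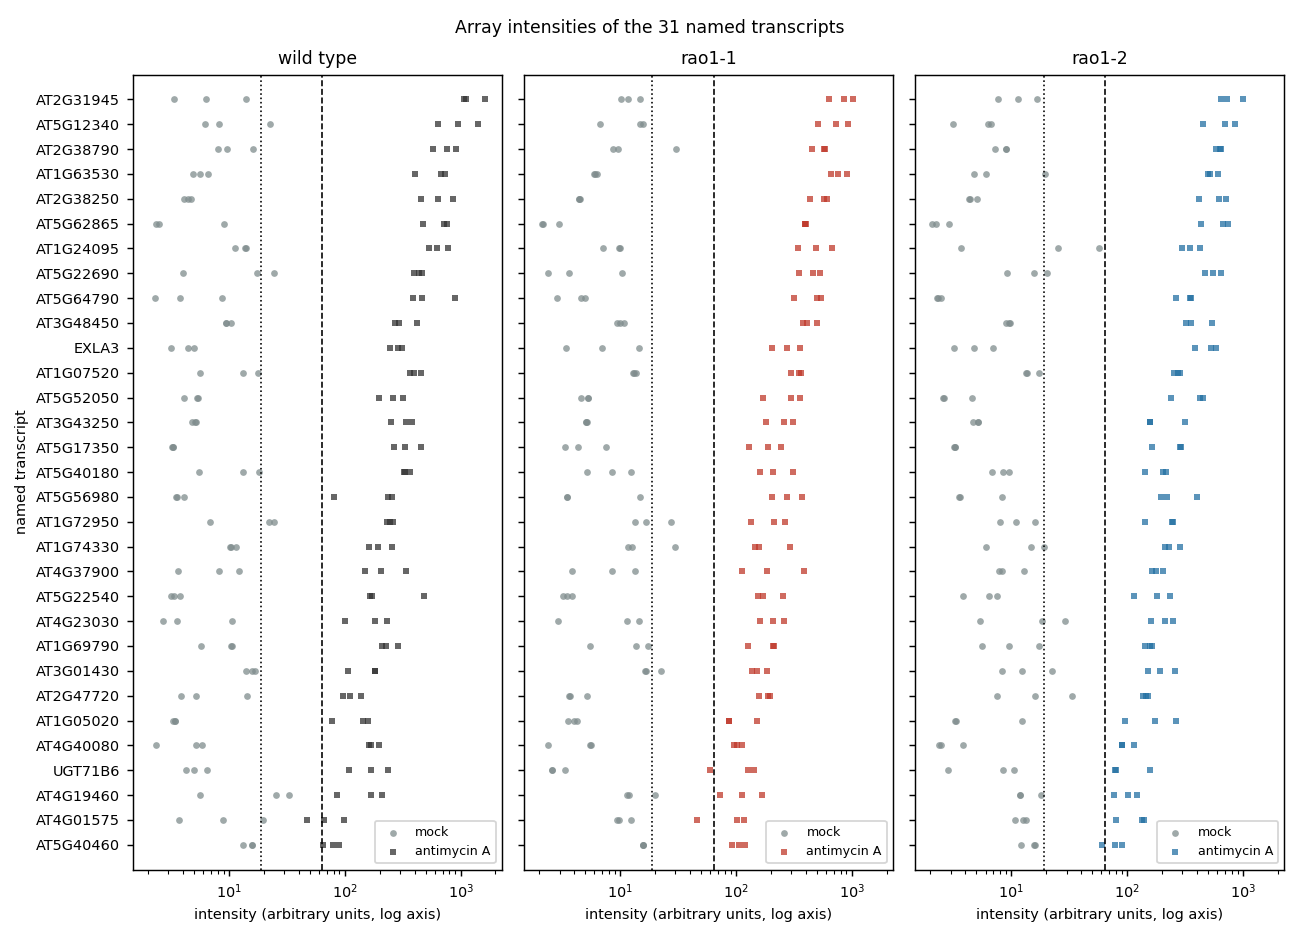
Intensity on each array (x axis, log scale, arbitrary units) of the 31 named members (y axis, from the highest to the lowest mean level under antimycin A) in wild type, rao1-1 and rao1-2. Grey circles are mock arrays and coloured squares antimycin A arrays, 3 of each per member, and the dotted and dashed lines mark 19 and 64. The clouds do not overlap for any named member, and 20 mock values of named members lie to the right of the dotted line.

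The highest intensities were those of unnamed probe sets, which took the first 6 places in the order of mean level under antimycin A. The first, 260706_at, chosen after its values were seen, had wild-type mock arrays of 4.4, 4.99 and 15.4 and wild-type antimycin A arrays of 3004, 8312 and 5539. The same probe set read 2004, 4223 and 2473 in rao1-1 and 2170.3, 3175 and 2573 in rao1-2 under the inhibitor. Replicate 2 was the highest of its 3 antimycin A arrays in each genotype. The named members began at rank 7. The median group mean under antimycin A in wild type, rao1-1 and rao1-2 was 253, 218 and 239.7 over the named members, and 229.5, 144 and 196 over the unnamed ones.

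Transcription regulators were represented by a trihelix factor and a GRAS-family protein. AT2G38250, a trihelix DNA-binding protein of the GT type, had mock arrays of 4.69, 4.07 and 4.39 in wild type against 4.45, 4.48 and 4.401 in rao1-1 and 4.39, 5.04 and 4.29 in rao1-2. Under antimycin A it read 456, 853 and 632 in wild type against 612, 576 and 437 in rao1-1 and 616, 721 and 418 in rao1-2. The lowest inhibitor array was 418 and the highest mock array 5.04, and the 3 genotypes overlapped under the inhibitor. Its fold was at least 33.0-, 28.2- and 30.0-fold in wild type, rao1-1 and rao1-2, and the larger of the mutants' log2 differences from wild type was -0.23, the smallest among the named members. AT1G07520, of the GRAS family of plant transcriptional regulators, had antimycin A arrays of 364, 397 and 457 in wild type against 299, 354 and 365 in rao1-1 and 254, 275 and 286 in rao1-2. Its mock arrays were between 5.64 and 17.7, and its rao1-2 values lay below the wild-type values and, on all 3 arrays, below the rao1-1 values.

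Defence-type proteins are described next. AT5G22690 and AT1G72950 encode proteins with TIR and NBS domains, which are domains of the intracellular immune receptors that recognise pathogen effectors. AT3G48450 belongs to the family of RIN4, a regulator of immunity guarded by such receptors. AT5G22690 had mock arrays of 17.6, 4.04 and 24.3 in wild type against 3.65, 2.39 and 10.4 in rao1-1 and 15.8, 9.19 and 20.3 in rao1-2, so 1 array in wild type and 1 in rao1-2 passed the limit. Its antimycin A arrays read 395, 438 and 461 in wild type against 462, 353 and 527 in rao1-1 and 554, 652 and 475 in rao1-2. The log2 changes were 5.17 in wild type and 5.28 in rao1-2, and the rao1-1 fold was at least 23.2. Here the mutants were not below wild type, with differences of 0.04 in rao1-1 and 0.37 in rao1-2 under the inhibitor. AT3G48450 was tight under mock, at 9.40, 10.5 and 9.40 in wild type against 9.94, 10.8 and 9.44 in rao1-1 and 9.50, 8.93 and 9.66 in rao1-2. Its arrays under the inhibitor were 269.7, 419.8 and 293 in wild type against 376, 506 and 411 in rao1-1 and 359, 545 and 325 in rao1-2. Both mutants had higher means than wild type, by 0.41 and 0.31 on the log2 scale (SE 0.19), with overlapping arrays. AT1G72950 started closer to the limit, with 3 of 9 mock arrays above it, log2 changes of 3.99 in wild type and 3.44 in rao1-1, and a fold of at least 10.8 in rao1-2.

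AT5G64790, a glycosyl hydrolase of the family that holds the plant glucanases which cut callose, had mock arrays of 3.77, 2.30 and 8.67 in wild type against 4.94, 4.56 and 2.85 in rao1-1 and 2.27, 2.33 and 2.45 in rao1-2. Under antimycin A it read 387, 888 and 469 in wild type against 317, 542 and 500.3 in rao1-1 and 266, 349 and 357 in rao1-2. One wild-type array, replicate 2, was well above the others, and the rao1-2 arrays were all below the wild-type arrays. AT4G01575, a Kazal-type protease inhibitor gene, and AT5G56980, whose role is not given here, are described with the variable and low members below.

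Signalling genes in the set were the protein kinase genes AT1G74330 and AT1G69790. AT1G74330 had mock arrays of 10.4, 11.5 and 10.1 in wild type against 29.6, 11.7 and 12.5 in rao1-1 and 14.7, 6.08 and 19.1 in rao1-2, with 1 array in rao1-1 and 1 in rao1-2 above the limit. Its antimycin A arrays were 195, 255 and 163 in wild type against 294, 158 and 145 in rao1-1 and 214, 286 and 230.3 in rao1-2. It was among the 3 named members closest to wild type in both mutants, with log2 differences of -0.09 and 0.27 (SE 0.42). AT1G69790 went from a mean of 8.94 ± 2.76 to 241 ± 40.1 in wild type (SD, n = 3), to 184 ± 48.8 in rao1-1 and to 156 ± 11.5 in rao1-2. All its mock arrays were below the limit.

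The transporter genes AT5G52050 and AT4G23030 encode multidrug and toxic compound extrusion (MATE) carriers, and AT5G52050 (DTX50) is known to export abscisic acid from cells. The wild-type arrays of AT5G52050 were 5.35, 4.13 and 5.28 under mock and 263, 316 and 196 under antimycin A. In rao1-2 they were 4.57, 2.56 and 2.61 and 425, 453 and 237, and its fold was at least 13.3-, 13.9- and 18.8-fold in wild type, rao1-1 and rao1-2. AT4G23030 had antimycin A means of 172 ± 66.0, 209 ± 48.3 and 207 ± 42.5 (SD, n = 3), from mock means of 5.63, 9.64 and 17.6 in wild type, rao1-1 and rao1-2. UGT71B6 (AT3G21780), a glucosyltransferase that inactivates abscisic acid by conjugation, read 109, 169 and 234 in wild type against 59.3, 144 and 126 in rao1-1 and 78.9, 157 and 79.8 in rao1-2. Its mock arrays lay between 2.56 and 10.7, and its fold was at least 8.56-, 5.39- and 5.25-fold in wild type, rao1-1 and rao1-2. A second glycosyltransferase gene, AT4G19460, had 3 of 9 mock arrays above the limit and log2 changes of 3.10 in wild type and 2.98 in rao1-1, with a fold of at least 5.21 in rao1-2.

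Cell wall, trafficking and cell cycle genes were also among the members. EXLA3 (AT3G45960) encodes an expansin-like protein, a relative of the expansins that loosen cell walls, and had mock arrays of 5.03, 4.39 and 3.13 in wild type against 6.94, 3.39 and 14.5 in rao1-1 and 3.23, 6.98 and 4.81 in rao1-2. Its antimycin A arrays were 310.5, 289.6 and 245 in wild type against 357, 206 and 277 in rao1-1 and 587, 529 and 384 in rao1-2. The rao1-2 arrays were all above those of wild type, with a log2 difference of 0.81 (SE 0.42), whereas rao1-1 overlapped wild type. AT4G40080 and AT1G05020 encode ENTH/ANTH-domain adaptors, which recruit clathrin to membranes. AT4G40080 read 199, 161 and 170.0 in wild type against 102, 112 and 95.2 in rao1-1 and 90.0, 90.3 and 115 in rao1-2 under the inhibitor. Every mutant array of AT4G40080 was below every wild-type array, and the log2 differences were -0.77 and -0.85 (SE 0.35). AT1G05020 overlapped among genotypes, with means of 126 ± 43.3, 109 ± 37.6 and 179 ± 85.2 (SD, n = 3). AT5G40460, a SIAMESE-related inhibitor of cyclin-dependent kinases, had folds of at least 4.08-, 5.56- and 3.97-fold in wild type, rao1-1 and rao1-2.

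AT1G24095, a DCC-family thiol-disulphide oxidoreductase-like gene counted in the mitochondrial dysfunction stimulon, was the only member on any of the pathway lists set out below. Its mock arrays were 13.9, 13.7 and 11.3 in wild type against 7.17, 9.76 and 10.1 in rao1-1 and 3.68, 25.2 and 57.3 in rao1-2. Under antimycin A it read 531, 631 and 781 in wild type against 345, 672 and 491 in rao1-1 and 296, 349.9 and 423 in rao1-2. The rao1-2 mock arrays were the most uneven of any named member, from 3.68 to 57.3, with 2 of 3 above the limit, and all 3 rao1-2 antimycin A arrays lay below the wild-type arrays. The fold was at least 33.7 in wild type and 25.5 in rao1-1, the rao1-2 log2 change was 4.34, and the mutants' differences from wild type under the inhibitor were -0.40 and -0.86 on the log2 scale.

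Several of the named members with the highest intensities have no role stated here. AT2G31945, the highest named member, had mock arrays of 3.36, 6.31 and 14.1 in wild type against 10.3, 11.7 and 14.98 in rao1-1 and 16.5, 11.4 and 7.64 in rao1-2. Its antimycin A arrays were 1080.2, 1633 and 1113 in wild type against 1024, 850.2 and 639.5 in rao1-1 and 646, 995 and 733 in rao1-2. All 6 mutant arrays lay below the 3 wild-type arrays, the lowest mutant array being 639.5, and the fold was at least 65.9-, 43.3- and 40.9-fold in wild type, rao1-1 and rao1-2. AT5G12340 read 22.5, 8.20 and 6.17 in wild type against 15.9, 6.76 and 14.8 in rao1-1 and 6.63, 6.31 and 3.15 in rao1-2 under mock. It read 945, 1400.0 and 644 in wild type against 934, 514 and 737 in rao1-1 and 704, 855 and 449.5 in rao1-2 under the inhibitor. The wild-type range overlapped those of both mutants, although the highest array was wild type and the lowest rao1-2. AT2G38790 had mock arrays of 16.1, 8.00 and 9.67 in wild type against 8.75, 9.55 and 30.4 in rao1-1 and 8.99, 7.26 and 9.08 in rao1-2, of which 1 in rao1-1 passed the limit. Its antimycin A arrays were 769, 921 and 581 in wild type against 584, 455 and 570.0 in rao1-1 and 649.6, 632 and 588 in rao1-2. All 3 rao1-2 arrays fell inside the wild-type range and 1 of the rao1-1 arrays did.

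AT1G63530 had a rao1-1 mean above that of wild type. Its mock arrays were 4.92, 5.57 and 6.60 in wild type against 5.96, 6.01 and 6.34 in rao1-1 and 4.78, 19.6 and 6.10 in rao1-2. Antimycin A arrays were 402, 676 and 736 in wild type against 663, 903 and 758 in rao1-1 and 515, 499 and 603 in rao1-2. The rao1-1 arrays reached above the wild-type range and the rao1-2 arrays fell within it, with log2 differences of 0.39 and -0.12 (SE 0.39). AT5G62865 had some of the lowest mock values, 2.35, 9.07 and 2.48 in wild type against 2.13, 2.17 and 2.97 in rao1-1 and 2.24, 2.06 and 2.91 in rao1-2. Under antimycin A it read 714, 768 and 475 in wild type against 393, 395 and 404 in rao1-1 and 672, 749.6 and 436 in rao1-2. Its rao1-1 arrays were close to one another and below all wild-type arrays, while rao1-2 overlapped wild type. The fold was at least 33.6-, 20.9- and 31.8-fold in wild type, rao1-1 and rao1-2.

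The members farthest from wild type, still inside the tolerance, were AT5G17350, AT5G40180 and AT1G24095. AT5G17350 had mock arrays of 3.31, 3.21 and 3.30 in wild type against 7.55, 3.34 and 4.35 in rao1-1 and 3.30, 3.19 and 3.29 in rao1-2. Its antimycin A arrays were 458, 330.0 and 264 in wild type against 244, 131 and 187 in rao1-1 and 285, 295 and 164 in rao1-2. The rao1-1 arrays were all below the wild-type arrays, a log2 difference of -0.91 (SE 0.31), and rao1-2 overlapped wild type at -0.51. AT5G40180 had mock arrays of 5.51, 18.2 and 13.3 in wild type against 12.3, 8.59 and 5.15 in rao1-1 and 9.56, 8.47 and 6.84 in rao1-2. Antimycin A arrays of AT5G40180 were 324, 328 and 365 in wild type against 309, 208 and 162 in rao1-1 and 204, 217 and 142 in rao1-2. Here all 6 mutant arrays lay below all 3 wild-type arrays, with log2 differences of -0.63 and -0.87 (SE 0.40). The nearest named transcripts beyond the tolerance were AT1G71530, AT4G24110 and AT4G02170, at absolute differences of 1.02, 1.05 and 1.05.

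The members that varied most between replicate arrays were AT5G56980, AT4G37900 and AT5G22540. Mock arrays of AT5G56980 were 3.60, 4.13 and 3.51 in wild type against 14.9, 3.46 and 3.50 in rao1-1 and 3.54, 8.35 and 3.64 in rao1-2. Under the inhibitor its arrays were 237, 257 and 80.1 in wild type against 369, 205 and 274 in rao1-1 and 196, 397 and 220.1 in rao1-2. Wild-type replicate 3 was the single low value. AT4G37900, a gene for a glycine-rich protein, had mock arrays of 8.20, 3.64 and 12.1 in wild type against 13.5, 3.82 and 8.43 in rao1-1 and 8.34, 12.9 and 7.89 in rao1-2. Antimycin A arrays of AT4G37900 were 150.2, 207 and 336 in wild type against 114, 388 and 186 in rao1-1 and 165, 205 and 179 in rao1-2. Its means were nearly level, with log2 differences of -0.12 and -0.27, but the standard error of 0.54 was larger than either. AT5G22540 had mock arrays of 3.16, 3.80 and 3.35 in wild type against 3.21, 3.47 and 3.87 in rao1-1 and 3.85, 6.46 and 7.54 in rao1-2. Antimycin A arrays of AT5G22540 were 164, 487 and 171 in wild type against 172, 256 and 156 in rao1-1 and 182, 236 and 115 in rao1-2. Wild-type replicate 2 was high here as well.

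The remaining named members were AT3G43250, AT3G01430, AT2G47720 and AT4G01575. AT3G43250 rose from about 5 on every mock array to 323 ± 68.4, 251 ± 64.2 and 210.3 ± 92.4 (SD, n = 3). AT3G01430 lay nearest inside the mock limit, with a rao1-1 mock mean of 18.4 on the log-averaged scale, followed by AT1G72950 at 18.2 and AT1G24095 at 17.5. Just outside were STN1 at 19.4, AT1G26900 at 19.4 and AT2G32140 at 19.9. AT2G47720 had antimycin A means of 115 ± 21.8, 181 ± 21.1 and 145 ± 6.74 (SD, n = 3). AT4G01575 lay nearest inside the antimycin A limit, with a lowest group mean of 67.5, followed by AT5G40460 at 75.5 and AT4G40080 at 97.8. The nearest transcripts outside it were nad5 at 63.99, just under the limit, ORA47 at 63.1 and AT5G58680 at 62.4.

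Within the tolerance, the mutants' antimycin A means were more often below than above the wild-type mean. The difference from wild type was negative for 46 of 60 members in rao1-1 and for 41 of 60 in rao1-2, and 39 were lower in both mutants, 12 higher in both and 9 on opposite sides. The median log2 difference of the members was -0.35 in rao1-1 and -0.27 in rao1-2, against 0.06 and 0.02 over all probe sets, of which 36.1% and 40.1% were negative. These comparisons share the wild-type arrays. Of the probe sets that met both levels, the tolerance removed 32 for being lower in a mutant and 10 for being higher. With mock means below the limit, 47 reached 64 in wild type but not in both mutants. Another 37 reached it in a mutant but not in wild type. A lean below wild type was thus not particular to the members. Centring the arrays on added control transcripts or applying quantile normalization left 45 to 50 of 60 members below wild type in rao1-1 and 39 to 41 in rao1-2. Leaving out wild-type replicate 2, whose median over the members was 322 against 243 and 245 on the other wild-type antimycin A arrays, left 39 and 34 below.

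Few members were called between genotypes by limma's test, and the tolerance itself limits such calls. In rao1-1 against wild type under antimycin A, 0 members were called higher and 1 lower, where 1.77% and 1.49% of all probe sets were called. The lower one, the unnamed 265841_at, had wild-type arrays of 2828, 3520.3 and 2856 and rao1-1 arrays of 1639.5, 1547 and 1786. The count was 0 when only the groups compared were fitted and 2 without rao1-1 antimycin A replicate 1. In rao1-2 against wild type, 0 members were called in either direction, beside 1.34% higher and 1.12% lower of all probe sets, and 1 was lower without rao1-2 antimycin A replicate 2 or without wild-type antimycin A replicate 1. Between the mutants under the inhibitor 0 members were called, beside 0.0572% and 0.044% of all probe sets, and 30 members were lower and 30 higher in rao1-2 than in rao1-1. At an unadjusted p below 0.05, limma put 3 members above and 7 below wild type in rao1-1, and 0 above and 8 below in rao1-2. Between the mutants, 2 members were higher and 1 lower in rao1-2 than in rao1-1. Of all 22746 probe sets, 4077, 3276 and 2072 passed this unadjusted threshold in either direction in these comparisons. Across the arrays, 4 members, AT2G31945, AT5G40180, AT4G40080 and the unnamed 260040_at, had all 6 mutant arrays below all 3 wild-type arrays, as had 3.93% of all probe sets, and 0 members had all 6 above, as had 4.92%. Within 0.5 on the log2 scale of wild type in both mutants were 22 members, 14 of them named. A mean within 2-fold does not show that the genotypes were alike, since the standard errors of single differences reached 0.69 among the named members.

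**Figure D2:**
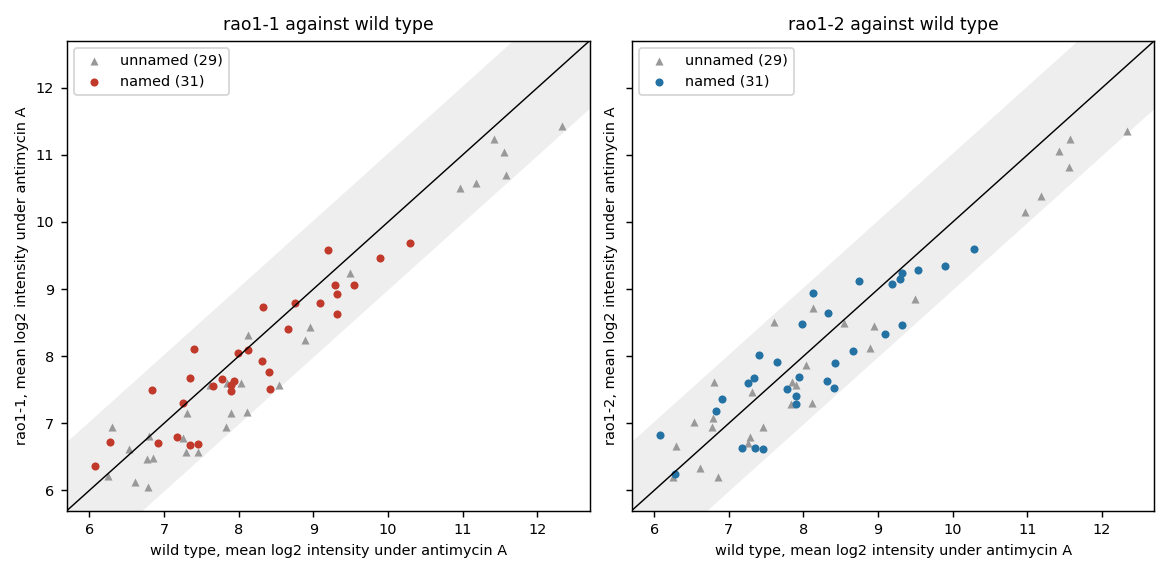
Mean log2 intensity under antimycin A in rao1-1 (left) and rao1-2 (right) against that in wild type for all 60 members, each point a mean of 3 arrays. The line marks equal levels and the grey band the tolerance of 1, which the rule imposed. Points below the line number 46 in rao1-1 and 41 in rao1-2, and the 20 members with the highest levels have 17 points below it in each panel.

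Members with high readings lay below wild type most often. Of the 20 members with the highest levels, 17 were below wild type in each mutant, with median log2 differences of -0.44 in rao1-1 and -0.53 in rao1-2. The 20 in the middle had 15 and 13 below, with medians of -0.29 and -0.24. In the 20 lowest members 14 and 11 were below, with medians of -0.33 and -0.05. The levels that set this order include the same arrays as the differences. The rule also asked for at least 64 in every genotype, so a dim member could not lie far below wild type. The order is therefore a description and no test.

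**Figure D3:**
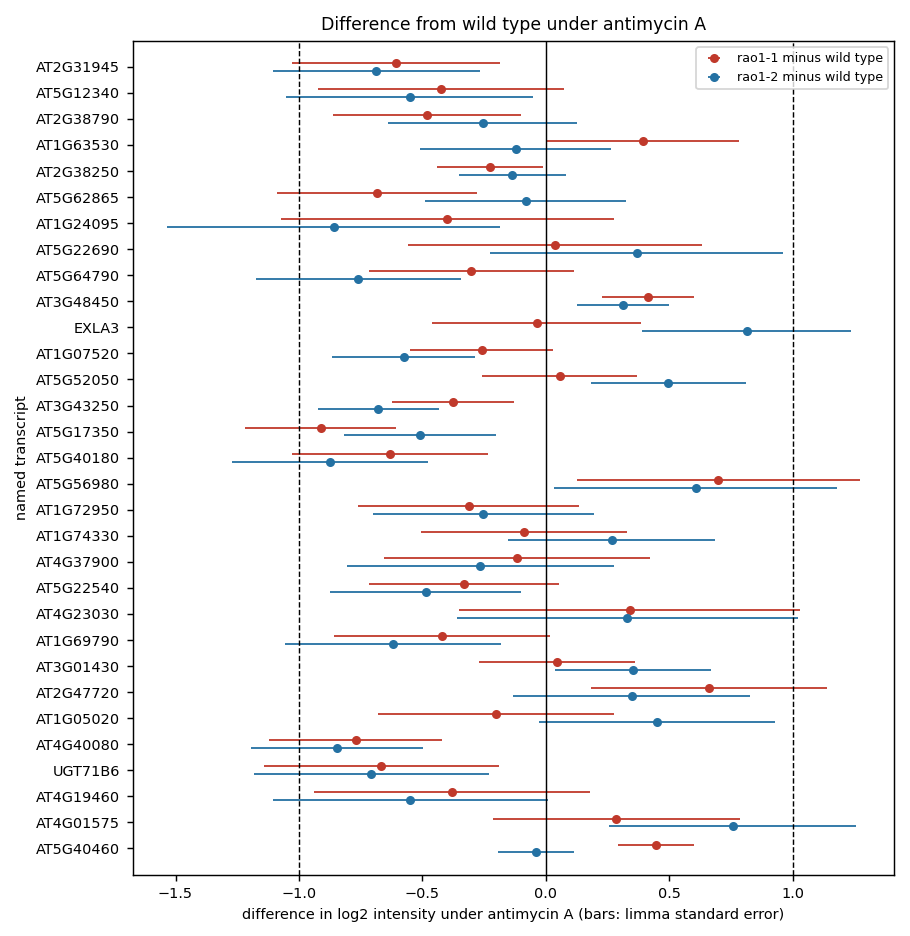
Difference in mean log2 intensity under antimycin A between each mutant and wild type (x axis) for the 31 named members (y axis, in order of level), with limma's standard error as bars, 3 arrays a group, and dashed lines at the tolerance of 1. Bars cross 0 for many members, and 5 members, among them EXLA3 and AT1G05020, have their mutants on opposite sides of 0.

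Without the inhibitor, the members were at background in all genotypes by construction. The mock contrasts called 0 members higher and 1 lower in rao1-1, beside 1.84% and 2.19% of all probe sets, and 0 in rao1-2, beside 0.633% and 0.739%. At an unadjusted p below 0.05, 6 members were higher and 0 lower in rao1-2, where 3060 of all 22746 probe sets passed in either direction. The 1 call in rao1-1, the unnamed 257927_at, was between values under the limit. In that contrast 0 were lower on leaving out any 1 of the 6 arrays other than wild-type mock replicate 2. Without wild-type mock replicate 3, 1 was higher. In rao1-2, 4 were called higher without rao1-2 mock replicate 1 and 2 without wild-type mock replicate 3. The difference of the responses between a mutant and wild type was called for 0 members in either mutant, beside 0.211% higher and 0.158% lower of all probe sets for rao1-1 and 0.0835% and 0.114% for rao1-2. At an unadjusted p below 0.05 the response of 1 member was higher and of 3 lower in rao1-1, and of 1 higher and of 8 lower in rao1-2. Of all 22746 probe sets, 2458 in rao1-1 and 2226 in rao1-2 passed this unadjusted threshold in either direction. The members' response differences include mock means that the rule held under the limit, so they are fitted values and not measured sizes. In rao1-2 they went down to -2.18, while the differences under antimycin A stopped at -0.99. At least 1 mock array above the limit was found for 9 members of the set in wild type against 10 in rao1-1 and 15 in rao1-2. The rao1-2 mock arrays differed here, since replicates 1, 2 and 3 had 0, 8 and 10 members above the limit.

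The members were set beside lists of known pathway genes, which were drawn up with earlier results of these data known. Of 19 mitochondrial dysfunction targets, 8 were named here, and 1 of them, AT1G24095, was a member. Called higher in wild type, rao1-1 and rao1-2 were 8, 7 and 5 of the 8, with median fitted log2 changes of 5.15, 3.64 and 3.07, which include genes under the limit. AT2G41730, with group means under antimycin A of 27401, 24190.5 and 23023 in wild type, rao1-1 and rao1-2, was already measured under mock at 189, 273 and 912, so it was no member. AT2G21640 (UPOX), a small mitochondrial protein raised by oxidative stress, was left out for the same reason, at mock means of 45.2, 160.2 and 135. AT2G32020, an acyltransferase-like gene, was off under mock and strongly on, but its means of 5022, 1845 and 1558 were beyond the tolerance. The rao1-1 calls of AT5G51440 and NDB4 and the rao1-2 call of NDB2 were lost on leaving out single arrays. NDB4, an alternative NADH dehydrogenase gene, was under the limit on 9 of 9 mock arrays and on 2 of the 3 rao1-1 antimycin A arrays.

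The other lists held few named genes. Of 16 WRKY factors 2 were named, WRKY6 and WRKY53, and both were called higher in all 3 genotypes, but both were measured under mock. WRKY6 had log2 changes of 3.27, 2.75 and 2.43 in wild type, rao1-1 and rao1-2, and the mutants' calls of WRKY53 were lost under both control centrings. STZ, the 1 named of 9 C2H2 zinc-finger stress factors, went from 416 to 11996 in wild type. CML38, a calmodulin-like gene and 1 of 2 named touch and calcium genes out of 6, went from 68.0 to 7866 in wild type, and AT1G76640, the other, from 4.90 to 30.1. ORA47, the 1 named of 17 ethylene response and DREB factors, missed the level of 64 in rao1-1, while its fold was at least 3.96-, 3.32- and 4.97-fold in wild type, rao1-1 and rao1-2. JMT, the 1 named of 13 jasmonate genes, was under the limit on all 18 arrays, so no change could be read for it. None of 13 retrograde regulators and 5 camalexin genes had a named probe set, so they were not analysed here.

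Chromosomal neighbours give a measure that the rule did not use. The 31 named members have 62 immediately adjacent protein-coding genes in the RefSeq table of assembly TAIR10.1, of which 31 had a named probe set, and 0 of these were members. By limma's test, the wild-type response of 9 of the 31 neighbours was called higher and of 5 lower, against 8 and 3 for rao1-1 and 11 and 5 for rao1-2. Over all probe sets 28.8%, 24.8% and 27.3% were called lower in these genotypes, beside the shares called higher given above, and several of the neighbours' calls were lost under an alternative setting. The median log2 change of the neighbours was 0.01, 0.18 and 0.12 in wild type, rao1-1 and rao1-2. The neighbours described next were picked for the size of their change.

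AT5G22530, next to AT5G22540, rose in all 3 genotypes, from 14.97 ± 11.6 to 1869 ± 341 in wild type (SD, n = 3). Its log2 changes were 7.33 in wild type against 5.16 in rao1-1 and 4.83 in rao1-2 (limma SE 0.49), with limma's adjusted p of 8.74e-08, 2.52e-06 and 4.11e-06. The wild-type change is against a mock mean under the limit. Neither mutant's response difference from wild type was called for AT5G22530 (limma's adjusted p of 0.24 and 0.252). It was no member because its mock means in the mutants, 41.2 and 44.5, were above the limit. AT1G72940, beside AT1G72950 and like it a TIR-domain gene, went from 209.7 ± 31.6 to 1118 ± 182 in wild type. The log2 changes of AT1G72940 were 2.41 in wild type against 3.57 in rao1-1 and 2.22 in rao1-2 (limma SE 0.16), with limma's adjusted p of 8.51e-08, 3.03e-09 and 1.99e-07. Its response differences from wild type were not called either (limma's adjusted p of 0.0501 and 0.862). In both pairs the neighbour was called higher in all 3 genotypes. The calls of the members beside them follow from the rule, and these neighbours were picked for their change, so the match between them is no test.

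Among the other neighbours with large changes some fell and some were called higher. AT3G48460, a GDSL-type lipase gene next to AT3G48450, fell in all 3 genotypes, with log2 changes of -2.93 in wild type against -2.21 in rao1-1 and -2.64 in rao1-2 (limma SE 0.35) and limma's adjusted p of 1.68e-05, 0.000187 and 3.68e-05. AT4G01570, next to AT4G01575, also fell, with log2 changes of -1.35, -1.12 and -1.28 and limma's adjusted p of 4.06e-06, 2.11e-05 and 6.15e-06. EXLA1, an expansin-like gene next to EXLA3, was called higher in wild type and rao1-2 and not in rao1-1, with log2 changes of 2.43 in wild type against 1.12 in rao1-1 and 3.22 in rao1-2 (limma SE 0.62) and limma's adjusted p of 0.00547, 0.161 and 0.000749; none of its response differences between genotypes was called. AT2G38240, a dioxygenase gene that acts on jasmonate, lies beside AT2G38250. It was called higher in wild type and rao1-2 and not in rao1-1. The log2 changes were 2.45 in wild type against 1.44 in rao1-1 and 4.24 in rao1-2 (limma SE 0.86). Limma's adjusted p was 0.0335, 0.191 and 0.00112, and the wild-type call was lost on leaving out any of 5 arrays. Neither mutant's response difference from wild type was called for AT2G38240 (limma's adjusted p of 0.76 and 0.7). AT5G64780, next to AT5G64790, was called higher in all 3 genotypes, with log2 changes of 1.85 in wild type against 1.74 in rao1-1 and 2.92 in rao1-2 (limma SE 0.65) and limma's adjusted p of 0.0332, 0.0471 and 0.00222, but its wild-type and rao1-1 calls were lost on leaving out single arrays.

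**Figure D4:**
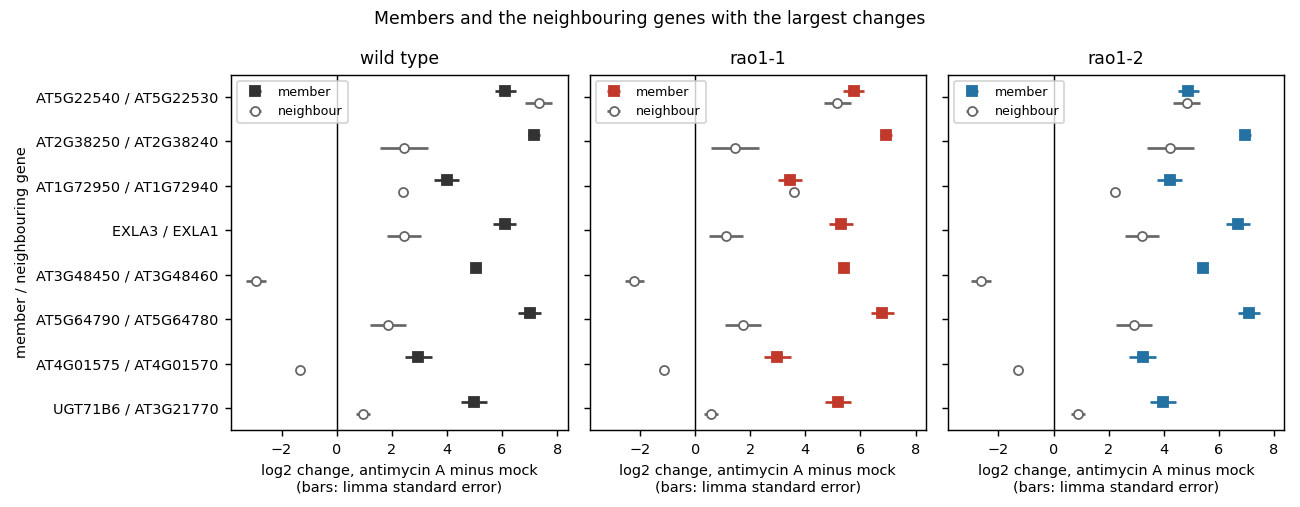
Log2 change under antimycin A (x axis, with limma's standard error as bars, 3 arrays a group) of 8 members (filled squares) and of the adjacent gene (open circles) in wild type, rao1-1 and rao1-2. The pairs are those whose neighbours had the largest absolute changes; the neighbours AT3G48460 and AT4G01570 lie left of 0 in every panel while the members beside them lie right of it. Changes of members are as fitted, against mock readings mostly under the limit.

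Close relatives of 3 members, looked up by gene symbol after the values were seen, were measured as well. EXLA2, the third expansin-like gene of this family measured here, had log2 changes of 3.00, 1.97 and 3.39 in wild type, rao1-1 and rao1-2, and its rao1-1 call was lost on leaving out single arrays. EXLA3 was under the limit on all 9 mock arrays, whereas EXLA1 and EXLA2 had wild-type mock means of 639 and 54.1. In the glucosyltransferase family of UGT71B6, UGT71B1 fell in all 3 genotypes, with limma's adjusted p of 0.000119, 0.00032 and 0.000463. All 3 of its wild-type antimycin A arrays were under the limit, so it was at least 8.23-fold lower there, and its log2 changes were -3.30 in rao1-1 and -3.10 in rao1-2, with 2 of 3 antimycin A arrays above the limit in each. UGT71C5, also an abscisic acid glucosyltransferase, rose by 0.99, 0.86 and 0.75 on the log2 scale, with limma's adjusted p of 0.000116, 0.000406 and 0.001, and its rao1-2 call was lost when arrays were centred on poly(A) controls. Of the other UGT71 genes measured, UGT71C4 was above the limit on all 18 arrays and not called in any genotype, with log2 changes of -0.04, 0.07 and -0.08. UGT71B5, UGT71B8, UGT71C1, UGT71C2 and UGT71C3 were under the limit on all 18 arrays; a wild-type call of UGT71C2 is therefore between readings under it. SIM, the SIAMESE gene to which AT5G40460 is related, fell where AT5G40460 rose, with log2 changes of -1.34, -2.17 and -1.37 and limma's adjusted p of 0.0118, 0.000476 and 0.0106.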

How the data were processed

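Expression was measured on 18 Affymetrix ATH1 arrays, 1-colour arrays of short oligonucleotides, with groups taken from the sample labels. The authors deposited normalized intensities, not logged. Per the submitters' processing notes RMA and GCRMA were used; their versions, and which one gave the deposited intensities, are not known here. Both force the arrays towards one distribution, so a change is read against the mass of transcripts. The number of arrays limits the precision.

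The log2 of each intensity was taken with no pseudocount. The 64 control probe sets were left out. limma (version 3.58.1, in R 4.3.3) was fitted with 1 mean per group to 22746 probe sets and 18 arrays, leaving 12 residual degrees of freedom, and tested two-sided with Benjamini-Hochberg adjustment at 0.05. The fit was checked on simulated data. The background limit of 19, the member rule and the gene lists were chosen with earlier results of these data known. Bounds set the dim group's values to the limit and compare means of log2 values.

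The platform annotation named 1 gene for 13513 probe sets and several for 503, and left 8730 unnamed here. RefSeq assembly TAIR10.1 served for names and neighbours only. Each named member is mentioned, and array values are given for the 10 highest named members, the 3 nearest to and 3 farthest from wild type, the 3 most variable and any on a list. Array values of AT1G07520, AT5G52050, UGT71B6, EXLA3 and AT4G40080 are printed as well, and no rule chose these. Levels are not compared between probe sets as amounts of RNA, since probe sets differ in response. Promoter sequences, protein sequences and a list of product names were not available here, so the planned motif and family counts were not made. What each gene encodes is given as background, and the product groups above were not counted over all probe sets. The labels do not say what a replicate number shares. Deviations of same-numbered samples correlated at over 0.1 in every pair for 3 of the 8 comparisons. These were antimycin A against mock in rao1-2 (0.14 to 0.17), and rao1-1 (0.11 to 0.31) and rao1-2 (0.20 to 0.28) against wild type under antimycin A. The other 5 had pairs down to -0.34. The numbers may therefore pair the samples in those 3, which is not settled here. The main fit did not use the numbers, and the replicate block, whose counts are given below, did. Alternatives were other centrings, quantile normalization, a filter on dim probe sets, fits on the compared groups alone, a replicate block, other limits in the rule and leaving out each array.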

Additional observations from a re-analysis of the deposited data

Results flagged for a closer look

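Among the mitochondrial dysfunction targets, 2 genes that are no members had a response that differed between genotypes, by limma's interaction test over all probe sets. For AT5G09570 (AT12CYS-2), a small mitochondrial twin-cysteine protein gene, the response was lower than in wild type by a log2 difference of -4.05 in rao1-1 (adjusted p = 0.00787) and -3.79 in rao1-2 (adjusted p = 0.0176). Both are fitted differences and not measured sizes, because every mock array and all 6 mutant antimycin A arrays of this gene were under the background limit; its wild-type response was at least 5.69-fold. For AT2G32020 the differences were -1.51 in rao1-1 (adjusted p = 0.00474) and -1.73 in rao1-2 (adjusted p = 0.00284), with every mock array under the limit and every antimycin A array above it. All groups held 3 arrays, so single arrays were not tested as outliers.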

How the results depend on the processing

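Of 2160 alternative log2 changes of single members, all were above 0 (lowest 1.55) and 2155 kept their call; the other 5 were of 265260_at in rao1-2, which passed the threshold there. The rule itself moved more. It gave 158 members with a mock limit of 38, 30 with 10, 94 with an antimycin A limit of 32, 22 with a tolerance of 0.5, 96 with 2, and 28 with every array on its side of both limits. Quantile normalization gave 65 members, 59 of them shared, and centring on hybridisation or poly(A) controls 54 and 50. Leaving out 1 array at a time gave 53 to 70, and members called higher stayed at 60 in wild type and rao1-1 and 59 to 60 in rao1-2. With a replicate block, which made 60 members called higher in rao1-2 and lost no response call of the listed, neighbouring or related genes, the called probe sets were for the response 10149 in wild type against mock, 9704 in rao1-1 and 10113 in rao1-2, against 9822, 9225 and 9756, and for rao1-1 and rao1-2 against wild type 977 and 679 under antimycin A, and 1090 and 442 under mock, against 743, 560, 918 and 312.

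Over all probe sets, leaving out 1 array gave 8727 to 9289 calls for the response in wild type, 7885 to 10027 in rao1-1 and 8806 to 9254 in rao1-2. Under antimycin A it gave 447 to 823 for rao1-1 against wild type, 265 to 579 for rao1-2 against wild type and 14 to 113 between the mutants, and under mock 383 to 964 and 181 to 1442. Fits on only the groups compared gave 58 for rao1-1 and 109 for rao1-2 against wild type under antimycin A, 3 between the mutants and 14 for rao1-2 under mock. Poly(A) centring gave 478 for rao1-1 against wild type under antimycin A, and hybridisation centring 4480 for rao1-1 under mock, where 4136 were higher, against 419 of 918. The hybridisation control BioC-3 read lower in the mock groups of both mutants, as given above. The control centrings moved the split: the share of higher calls in the response fell from 33.4% to 20.6% in wild type (poly(A)), from 38.9% to 24.4% and 18.4% in rao1-1 and from 36.4% to 18.9% and 22.0% in rao1-2 (poly(A), then hybridisation controls). Under antimycin A it fell from 54.2% to 42.9% and 38.4% for rao1-1 and from 54.5% to 39.7% and 37.1% for rao1-2 against wild type, and between the mutants it was 68.8% with poly(A) centring against 56.5%. Under mock it moved from 45.6% to 33.7% and 92.3% for rao1-1 and from 46.2% to 39.2% and 77.3% for rao1-2. Members were lost or gained most without rao1-2 mock replicate 1 (53) and replicate 3 (70), and calls for rao1-2 under mock reached 1442 without rao1-2 mock replicate 1 and those between the mutants 113 without rao1-1 antimycin A replicate 1. The causes were not tested.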
